A study of Mus musculus with 6 samples.

Results

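The 39 protein-coding Hox genes of the mouse, taken from the GENCODE vM21 annotation by their symbols (Hoxa, Hoxb, Hoxc or Hoxd and a number) out of 21951 protein-coding genes, were examined for open chromatin in regulatory T cells (Tregs). They form 4 clusters, with 11 genes in Hoxa, 10 in Hoxb, 9 in Hoxc and 9 in Hoxd. Every accessible region that overlapped one of these gene bodies, extended by 2 kb on each side, was taken, which gave 80 of 100771 regions in control Tregs and 72 of 94499 regions in CREB-deficient Tregs. The windows covered 380 kb in all.

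Splenic Tregs came from C57BL/6 mice 6 to 12 weeks old with both alleles of the transcription factor CREB flanked by loxP sites. CREBfl/fl mice without Cre, labelled wild type, were the controls, and in Foxp3creCREBfl/fl mice, whose titles carry the tag Foxp3_KO, Cre driven from the Foxp3 locus deletes CREB in Foxp3-expressing cells alone. ATAC-seq, in which a transposase cuts accessible DNA, was run on 3 libraries per group by the labels, and the files used here hold 1 list of regions per group, so no spread between mice could be computed and no p-value is given. Since whole cell populations were assayed in bulk, altered accessibility in each cell and an altered share of cell types cannot be told apart. The deletion itself was not checked here, since the lists hold open chromatin and no transcript.

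Hox genes encode homeodomain transcription factors that give the body axis its regional identity. Within each cluster the genes are transcribed in the same direction and are numbered by paralog group, with the low numbers expressed earlier and further towards the head and the high numbers later and towards the tail. The clusters are rich in CpG islands and are classic targets of Polycomb repression and of Trithorax activation. In blood, members such as Hoxa7, Hoxa9, Hoxa10 and Hoxb4 act in stem and progenitor cells, and Hoxa3 is needed in the embryo for the thymus to form.

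The height of a region is its pileup, the number of fragments over the summit, which was recovered from the authors' fold and p as a whole number. It is given beside its ratio to the genome background of its list, which was 8.44 fragments in CREBfl/fl and 5.09 in Foxp3creCREBfl/fl. By this measure the CREBfl/fl list was 1.66 times as deep, if fragments were counted in the same manner for both, which was not checked. Depth per library is unknown. Positions refer to GRCm38.

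The sequences under the highest region of each cluster are shown because these regions are the tallest of their cluster in both lists, and none of the Hoxa, Hoxc and Hoxd summits lies directly at a start site. Each is printed 5′ to 3′ in the direction of Hox transcription with every CpG in capitals, read from the RefSeq GRCm38.p6 assembly. In Hoxa it lay at chr6:52211581-52211880 on the minus strand, in an intron of Hoxa3, with the summit 1.38 kb after the nearest start site of that gene and the edge within 1 kb of it. The 300 bases hold 24 CpG at a GC content of 65.7%, an observed over expected CpG of 0.75.
Hoxa3 intron: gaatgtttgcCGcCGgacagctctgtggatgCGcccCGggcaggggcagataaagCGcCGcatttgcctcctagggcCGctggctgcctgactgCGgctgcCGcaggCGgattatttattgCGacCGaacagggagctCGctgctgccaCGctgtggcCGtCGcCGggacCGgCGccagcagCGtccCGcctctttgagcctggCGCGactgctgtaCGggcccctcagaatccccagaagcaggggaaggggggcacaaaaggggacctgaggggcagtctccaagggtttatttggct
In Hoxb it was the start of Hoxb4, whose summit lies in an untranslated part of the gene. Only the adjoining 41 coding bases, chr11:96318770-96318810 on the plus strand, are printed, and they begin with the start codon of Hoxb4.
Hoxb4 coding start: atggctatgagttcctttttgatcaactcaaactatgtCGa
In Hoxc it lay at chr15:102999198-102999497 on the plus strand, in an intron that the long transcript models of Hoxc5 and Hoxc6 share. It holds 19 CpG at a GC content of 67.3%, an observed over expected CpG of 0.56.
Hoxc5 and Hoxc6 intron: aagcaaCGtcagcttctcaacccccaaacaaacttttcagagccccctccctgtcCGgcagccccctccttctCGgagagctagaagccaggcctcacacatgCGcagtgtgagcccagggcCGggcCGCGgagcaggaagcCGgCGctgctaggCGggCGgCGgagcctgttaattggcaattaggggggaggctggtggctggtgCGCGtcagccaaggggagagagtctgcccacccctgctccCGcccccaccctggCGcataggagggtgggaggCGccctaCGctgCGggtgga
In Hoxd it lay at chr2:74749292-74749591 on the plus strand, past the 3′ end of Hoxd3 and within the non-coding gene Haglr, with 14 CpG at a GC content of 57.0%, an observed over expected CpG of 0.58.
Haglr region: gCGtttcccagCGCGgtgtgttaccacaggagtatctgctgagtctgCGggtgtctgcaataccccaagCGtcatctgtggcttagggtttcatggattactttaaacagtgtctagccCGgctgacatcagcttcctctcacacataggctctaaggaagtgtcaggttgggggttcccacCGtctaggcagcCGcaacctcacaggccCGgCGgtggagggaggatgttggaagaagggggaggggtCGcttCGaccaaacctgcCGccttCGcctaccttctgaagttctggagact

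Tregs carried open chromatin at many Hox genes, but the sites were low. A gene is called open in a list when a region lies within 1 kb of one of its protein-coding start sites. In CREBfl/fl Tregs 26 of 39 Hox genes were open (66.7%, Wilson 95% interval 51.0 to 79.4), against 60.6% of all protein-coding genes. In Foxp3creCREBfl/fl Tregs 21 of 39 were open (53.8%, 38.6 to 68.4), against 60.1%. Both intervals hold the value of all genes. The median height of the open start sites was 7.40 times background in CREBfl/fl and 12.97 times in Foxp3creCREBfl/fl, where the medians over all open genes were 75.9 and 85.3 times. The highest site at a Hox start, the Hoxa3 intron printed above, stood at 48.1 times in CREBfl/fl, a height that 41.3% of all protein-coding genes reached or passed. Intervals cover counting error only.

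**Figure D1:**
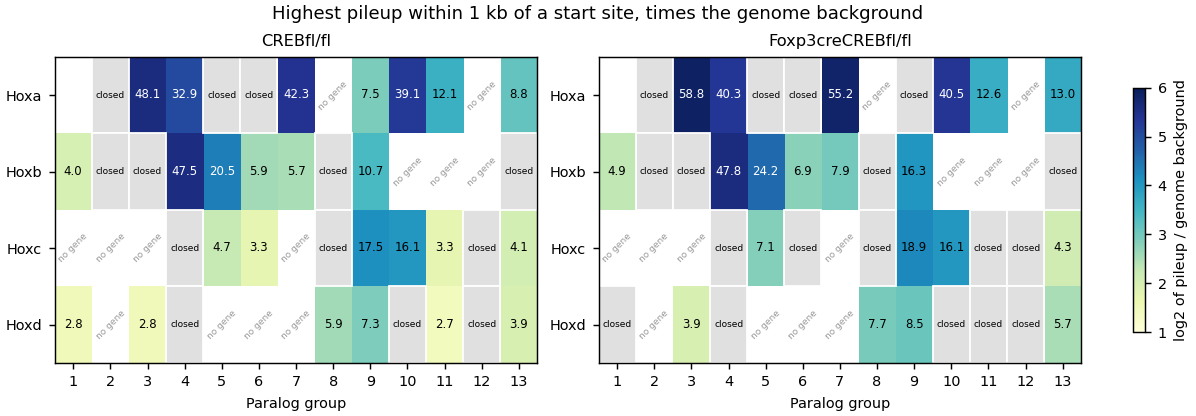
Highest pileup within 1 kb of a start site, as a multiple of the genome background, for each paralog group (columns) and cluster (rows) in CREBfl/fl and Foxp3creCREBfl/fl Tregs. The colour is on a log2 scale, grey squares are genes with no region within 1 kb, and squares marked no gene are paralogs that the mouse lacks. The values from 32.9 to 48.1 in CREBfl/fl lie in Hoxa and at Hoxb4, while the open Hoxd genes reach at most 7.34 there.

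The clusters differed in height. In CREBfl/fl Tregs the median over the open genes was 30.6 times background in Hoxa (8 of 11 genes open), 8.29 in Hoxb (6 of 10), 4.44 in Hoxc (6 of 9) and 3.37 in Hoxd (6 of 9). In Foxp3creCREBfl/fl Tregs the order was the same, with 40.3 in Hoxa (7 of 11), 12.1 in Hoxb (6 of 10), 11.6 in Hoxc (4 of 9) and 6.68 in Hoxd (4 of 9). The medians rest on the open genes alone, and the second set leaves out low sites of Hoxa9, Hoxc6, Hoxc11, Hoxd1 and Hoxd11 that were called in CREBfl/fl only. Along the axis, 5 of 8 genes of paralog groups 1 to 3, 9 of 15 of groups 4 to 8 and 12 of 16 of groups 9 to 13 were open in CREBfl/fl, and 4, 8 and 9 of them in Foxp3creCREBfl/fl. The Wilson intervals overlapped, and ran from 30.6% to 86.3% for groups 1 to 3 and from 50.5% to 89.8% for groups 9 to 13 in CREBfl/fl.

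In 13 genes no start site was open in either list. Of these, 7 had no region anywhere in their window: Hoxa2, which patterns the hindbrain and the jaw arches, Hoxa5, Hoxa6, Hoxb13, the most tailward gene of its cluster, Hoxc4, Hoxc8 and Hoxc12. The other 6 genes had a region elsewhere in the window, and they were Hoxb2, Hoxb3, Hoxb8, Hoxd4, Hoxd10 and Hoxd12. Hoxb8 is the clearest of these, since none of its 3 start sites was open while a region over its 3′ part had a pileup of 173 in CREBfl/fl and 121 in Foxp3creCREBfl/fl.

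Regions were dense per base of window in all clusters. Per 100 kb of window there were 21.1 regions in CREBfl/fl and 18.96 in Foxp3creCREBfl/fl, against 6.30 and 5.95 in the windows of all protein-coding genes. Regions covered 6.26% and 5.04% of the Hox windows, against 2.43% and 2.18% of the gene windows as a whole. These measures depend on gene length and on how close start sites lie, which were not matched. Of the CREBfl/fl Hox regions 65% lay within 1 kb of a start site, against 20.6% of all CREBfl/fl regions. Counted by gene the order was reversed, with 80 CREBfl/fl regions for 39 Hox genes against 69468 for 21951 genes. Hoxa was covered most (8.40% in CREBfl/fl and 6.82% in Foxp3creCREBfl/fl), followed by Hoxb (6.85% and 6.09%), Hoxd (5.10% and 4.05%) and Hoxc (4.58% and 3.14%). Of the 83 regions of both lists joined by overlap, 27 had their summit in a coding exon of a Hox gene, 31 in an intron, 10 in an untranslated part and 15 outside Hox genes.

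**Figure D2:**
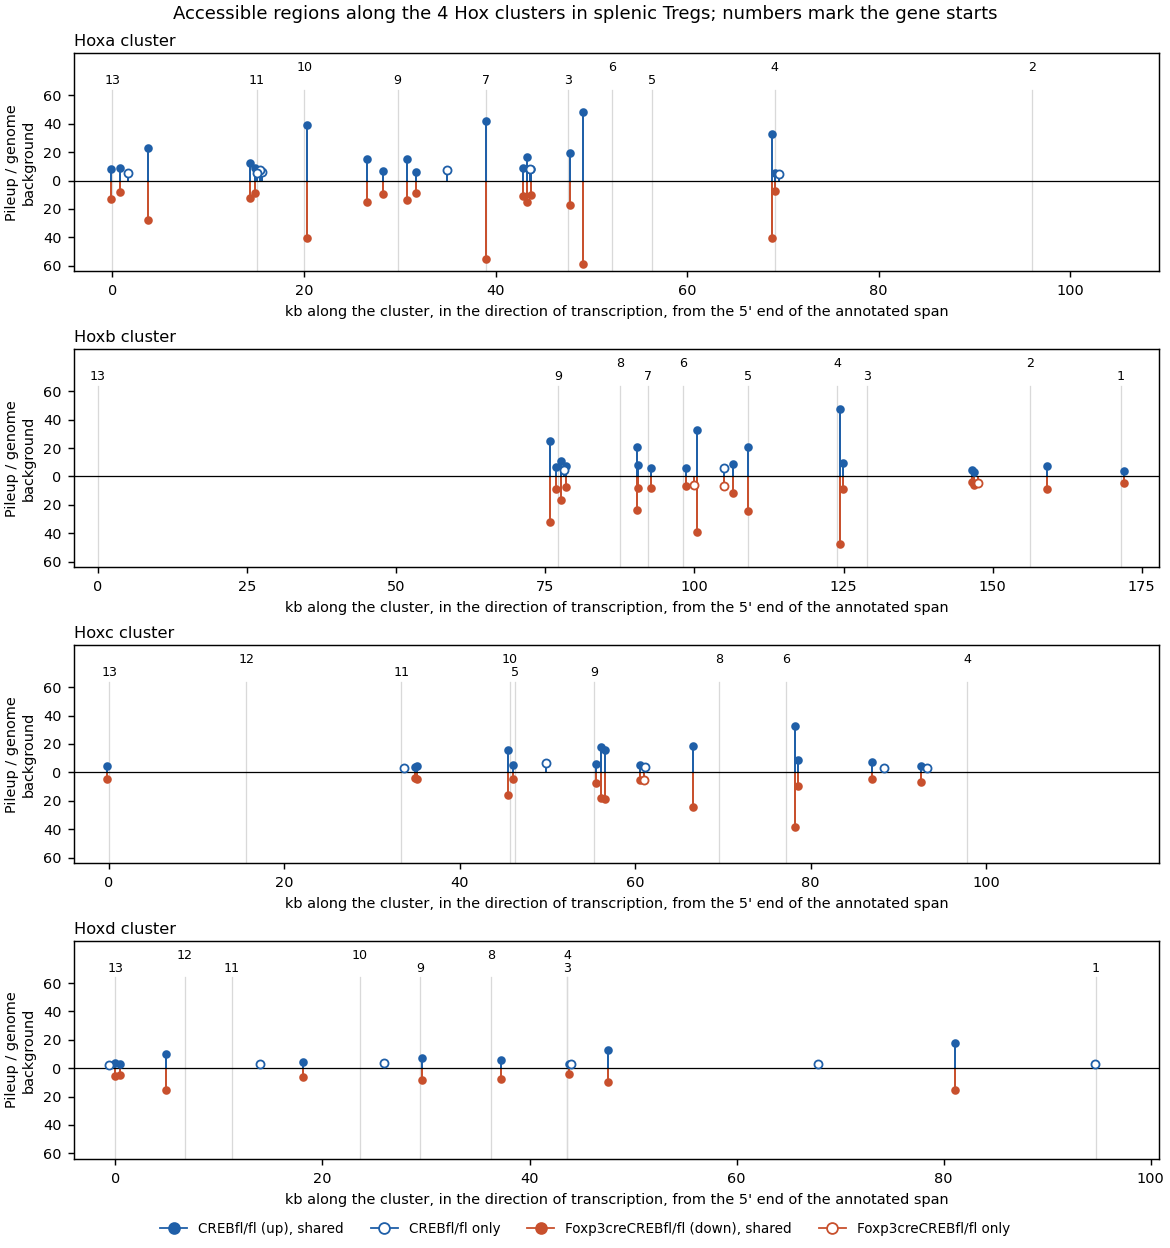
Accessible regions along the Hoxa, Hoxb, Hoxc and Hoxd clusters, drawn in the direction of transcription. The vertical axis is the summit pileup as a multiple of the genome background, upward for CREBfl/fl and downward for Foxp3creCREBfl/fl, open circles are regions with no counterpart in the other list, and grey lines with numbers mark the 5′ end of each gene. The tall regions stand at like heights above and below the line, the stretch between Hoxb13 and Hoxb9 was not part of the windows, and the open circles are low.

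Hoxa held the tallest single region, and its tall regions were spread along the cluster. The Hoxa3 intron at chr6:52211489-52212231 had a pileup of 406 in CREBfl/fl and 299 in Foxp3creCREBfl/fl, which is 48.1 and 58.8 times background. The start of Hoxa7, a gene of trunk patterning that is also active in myeloid progenitors, had 357 and 281 fragments at chr6:52221350-52221931 (42.3 and 55.2 times). A start of Hoxa10, a regulator of blood progenitors and of the uterus, had 330 and 206 at chr6:52240275-52240797 (39.1 and 40.5 times). The log2 ratio of Foxp3creCREBfl/fl to CREBfl/fl, over background and relative to the median of all shared regions, was 0.14, 0.24 and -0.10 for these 3 regions, so their heights were close once divided by background.

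Other sites of Hoxa were lower in both lists. A region 0.233 kb before the start of Hoxa4 had 278 fragments in CREBfl/fl and 205 in Foxp3creCREBfl/fl. Past the 3′ end of Hoxa13, a gene of digits and the urogenital tract, a region at chr6:52257027-52257362 had 196 and 140. Hoxa11, a gene of the forearm and kidney, reached 102 and 64. Hoxa13 itself had 74 and 41 in a coding exon and 68 and 66 at its start. Hoxa9, a gene central to the growth of blood progenitors, was open in CREBfl/fl alone by its protein-coding starts. The region was low, with 63 fragments in the coding exon (7.46 times background). With the annotated 5′ end of each gene as the start, 8 of 11 Hoxa genes were open in each list. Both lists also held a region over the microRNA gene Mir196b, with 131 and 68 fragments. It lay 2.76 kb before the nearest Hoxa9 start, which was itself open in neither list.

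Hoxb was led by Hoxb4, which expands blood stem cells when it is overproduced. Its start at chr11:96318204-96319041 had a pileup of 401 in CREBfl/fl and 243 in Foxp3creCREBfl/fl, or 47.5 and 47.8 times background. An intron of Hoxb6 at chr11:96294410-96294976 had 276 and 200 (32.7 and 39.3 times). A region 1.35 kb before Hoxb9, at chr11:96269935-96270250, had 212 and 162 (25.1 and 31.8 times). The start of Hoxb5 had 173 and 123 fragments. The highest regions at the other open starts were lower, with 90 and 83 at Hoxb9, 48 and 40 at Hoxb7 and 34 and 25 at Hoxb1, a hindbrain gene. Hoxb6 had 48 and 35 at its first start, and 50 and 33 at a later start, in regions that do not overlap. Hoxb2 and Hoxb3 had regions only past or before their starts, with at most 60 fragments in CREBfl/fl.

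Hoxc had its tallest region in an intron rather than at a start. The intron at chr15:102999018-102999569, shared by the models of Hoxc5 and Hoxc6, had 276 fragments in CREBfl/fl and 195 in Foxp3creCREBfl/fl (32.7 and 38.3 times background). A region 2.98 kb before Hoxc8, at chr15:102987350-102987862, had 154 and 123 (18.2 and 24.2 times). The start of Hoxc9, which sets the motor neuron type of the thoracic spinal cord, had 148 and 91 at chr15:102976929-102977454 (17.5 and 17.9 times). Hoxc10 reached 136 and 82, Hoxc5 40 and 36, and Hoxc13, a gene of hair and nail, 35 and 22. Hoxc6 and Hoxc11 were open in CREBfl/fl alone, with 28 fragments each. The gene model of Hoxc5 runs over Hoxc6, Hoxc8, Hoxc9 and part of Hoxc10, so that 15 CREBfl/fl regions fell in its window and most of them are nearer to other genes.

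Hoxd was the lowest cluster by its tallest region and by the median over its open genes. Over all Foxp3creCREBfl/fl regions the median height was 7.27 times background in Hoxd and 5.70 in Hoxc. Its tallest region, in Haglr at chr2:74749238-74750046, had 151 fragments in CREBfl/fl and 79 in Foxp3creCREBfl/fl (17.9 and 15.5 times background). An intron of Hoxd3 and Hoxd4 at chr2:74715799-74716156 had 107 and 51 (12.7 and 10.02 times), and a region 1.86 kb before Hoxd12, at chr2:74672764-74673231, had 84 and 78 (9.95 and 15.3 times). Among the starts, Hoxd9 had 62 and 43 fragments, Hoxd8 50 and 39, Hoxd13, a gene of digits, 33 and 29, and Hoxd3 24 and 20. Hoxd1 and Hoxd11 were open in CREBfl/fl alone, with 24 and 23 fragments.

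Whether Hox accessibility differed with the deletion of CREB was read in 2 ways, from regions called in one group alone and from the heights of regions called in both. Of the 80 CREBfl/fl regions, 20 had no Foxp3creCREBfl/fl counterpart (25%, Wilson 95% interval 16.8 to 35.5), where the share over all CREBfl/fl regions was 16.4%, just below the interval. Within 1 kb of a start site, 16 of 52 CREBfl/fl Hox regions had no counterpart, against 10.3% of all such regions. The low height of the Hox regions was not matched in either comparison. Of the 72 Foxp3creCREBfl/fl regions, 4 had no CREBfl/fl counterpart (5.56%, 2.18 to 13.4), against 6.61% of all. When regions of both lists were kept only at a -log10 q of at least 5, the CREBfl/fl share was 16.9% (11 of 65), against 15.7% of all regions at that threshold. The CREBfl/fl-only regions were low, with pileups of 22 to 67. Taken at unchanged height relative to background to the depth of the Foxp3creCREBfl/fl list, 17 of the 20 would still have reached the lowest -log10 p of that list (85.0%), as would 92.1% of all CREBfl/fl-only regions. The Hox share that would still have reached it was thus not above that of all CREBfl/fl-only regions. The pileup of these regions in the other list is unknown. The scaled pileups belong to regions picked for their call in CREBfl/fl, and counting error was left out. The part of depth in the missing calls was therefore not tested.

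The CREBfl/fl-only regions were shared out as 7 in Hoxa, 2 in Hoxb, 5 in Hoxc and 6 in Hoxd. In Hoxd they were 6 of 15 regions (19.8% to 64.3%), against 16.4% of all, and 1 of 8 at a -log10 q of at least 5, against 15.7% of all. In Hoxc they were 5 of 19 regions, and 6 of 17 at that threshold. In Hoxa they were single regions in the coding exons of Hoxa4 (39 fragments), Hoxa7 (67) and Hoxa9 (63), a region in the intron of Hoxa13 (43), and 3 regions at Hoxa11 with 52, 61 and 43 fragments. At Hoxa11 these regions lay beside shared ones, so the gene counted as open in both lists. In Hoxb they were a region in Hoxb9 with 39 fragments and one in Hoxb6 with 50, which touched no other region but lay beside a Foxp3creCREBfl/fl-only region with 33. In Hoxc the pileups were 28 at Hoxc11, 55 at the coding exon of Hoxc10, 29 in an intron of Hoxc9, 28 at Hoxc6 and 26 at Hoxc5. The Hoxc10 region stood farthest above its own surroundings, at 4.26 times the local background. In Hoxd all 6 had between 22 and 30 fragments, at Hoxd13, Hoxd11, Hoxd10, at 2 starts of Hoxd3, and at Hoxd1.

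The 4 Foxp3creCREBfl/fl-only regions were in Hoxb and Hoxc. They had 30 and 33 fragments at Hoxb6, 24 in an intron of Hoxb3 and 28 in a coding exon of Hoxc9. In Hoxa and Hoxd no Foxp3creCREBfl/fl region lacked a counterpart (0 of 20 and 0 of 13, with upper Wilson limits of 16.1% and 22.8%). The 5 genes open in CREBfl/fl alone were Hoxa9, Hoxc6, Hoxc11, Hoxd1 and Hoxd11, and no gene was open in Foxp3creCREBfl/fl alone. The share of all protein-coding genes open in a single list was not computed, so nothing is concluded from this count. By the same scaling without counting error, the start region of 4 of these 5 would have reached the lowest -log10 p of the other list. That of Hoxd11 would not. With a start site counted as open up to 2 kb away, 29 genes were open in CREBfl/fl and 28 in Foxp3creCREBfl/fl. With the annotated 5′ end of each gene as the start, the counts were 26 and 24. At a -log10 q of at least 5 they were 23 and 20, with 3 of 9 Hoxd genes open in each list.

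Heights of the regions in both lists were close. For the 59 shared Hox regions the log2 ratio of Foxp3creCREBfl/fl to CREBfl/fl, each pileup over its genome background and relative to the median of all 82004 shared regions, had a median of 0.10 and ran from -0.84 to 0.63. The ratio was below 0 in 24 regions and above 0 in 35. Without the shift to the median of all shared regions, which was 0.15, each ratio is 0.15 higher. A region is called lower or higher when it differs by at least 2-fold and 5 counting standard deviations (SDs). By this rule 0 Hox regions were lower and 0 were higher, where 0.117% of all shared regions were lower and 0.0829% higher. The counting SD of a Hox region was 0.27 at the median on the log2 scale. With 5 SDs required, a 2-fold change at a region of that SD or above would not have been called. Given this and the small shares over all regions, 0 calls among 59 regions carry little weight.

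**Figure D3:**
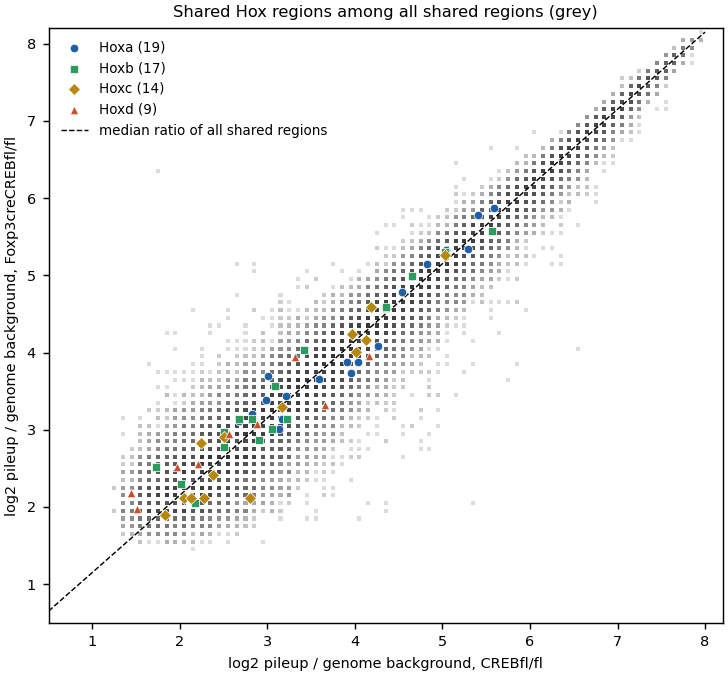
Height of the 59 shared Hox regions in CREBfl/fl (horizontal) and Foxp3creCREBfl/fl (vertical), as log2 of the pileup over the genome background, with one marker shape and colour per cluster. Grey squares are all 82004 shared regions, darker where more of them fall, and the dashed line is their median ratio of 0.15. The Hox regions lie in the lower and middle part of the range along that line, and the tallest Hoxd region is lower than that of any other cluster.

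The exact 95% counting interval left out 0 in 5 of the 59 regions. A single region was below 0 (against 7.88% of all shared regions): at chr15:103008041-103008194, in an intron 1.46 kb before Hoxc6, the pileup was 59 in CREBfl/fl and 22 in Foxp3creCREBfl/fl, a relative log2 ratio of -0.84 (-1.62 to -0.11). Without the shift its interval reached 0.04. The other 4 were above 0 (against 5.47% of all). They were the start of Hoxa7 with 357 and 281 fragments (0.24, 0.00 to 0.46), the start of Hoxa13 at chr6:52260729-52261029 with 68 and 66 (0.54, 0.03 to 1.05), the start of Hoxb9 at chr11:96271506-96272249 with 90 and 83 (0.46, 0.02 to 0.91) and the region before Hoxd12 with 84 and 78 (0.47, 0.01 to 0.94). With promoter regions alone as the reference, the intervals of Hoxa7 and Hoxd12 included 0, and that of the Hoxd3 and Hoxd4 intron fell below it (-0.50, -1.01 to -0.01).

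**Figure D4:**
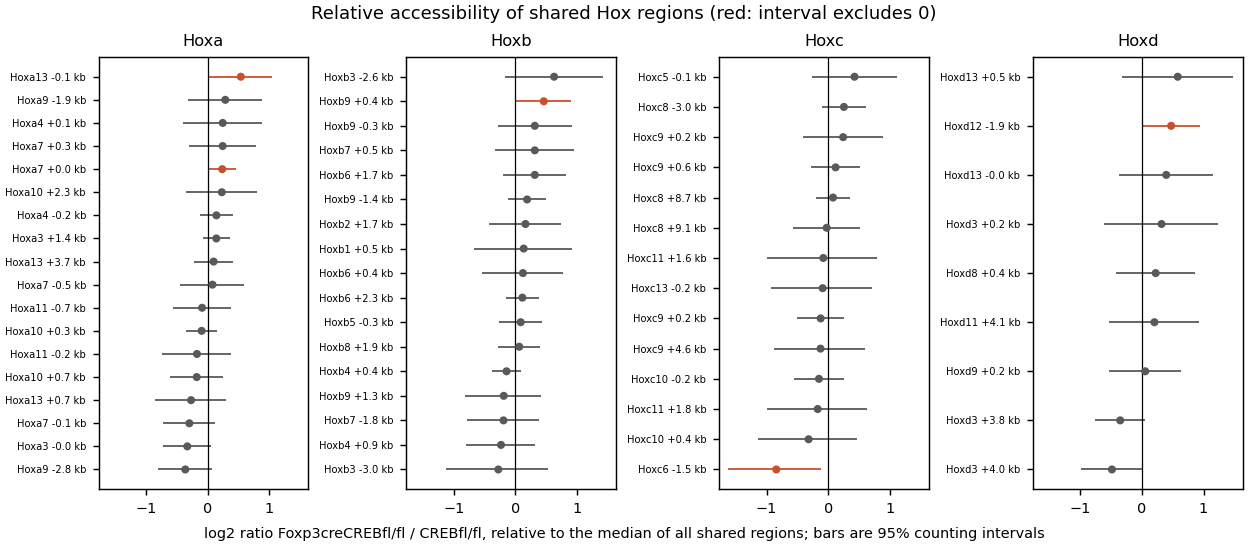
Log2 ratio of Foxp3creCREBfl/fl to CREBfl/fl for the shared Hox regions, relative to the median of all shared regions, sorted within each cluster and named by the nearest start site and the distance to it in kb. Points are ratios and bars are exact 95% counting intervals, which are red where they leave out 0. The bars in red belong to the 5 regions whose interval leaves out 0, and the region before Hoxc6 at -0.84 lies farthest below it.

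By cluster the median ratio was 0.10 in Hoxa (19 regions), 0.12 in Hoxb (17), -0.08 in Hoxc (14) and 0.22 in Hoxd (9). Over the regions of a cluster the SD of the ratio was 0.25, 0.26, 0.30 and 0.36 in the same order. Regions within 1 kb of a start site had a median of 0.12 (35 regions) and those farther away 0.07 (24 regions).

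The sequence of the Hox regions was rich in CpG, also away from start sites. In 300 bases centred on the summit, the 80 CREBfl/fl regions had a median GC content of 61.8% and a median observed over expected CpG of 0.74, against 48.3% and 0.26 over all CREBfl/fl regions. Within 1 kb of a start site, 84.6% of 52 Hox regions had an observed over expected CpG of at least 0.6, against 59.3% of 20795 such regions genome-wide. Farther away, 57.1% of 28 Hox regions did so, against 4.70% of 79976. By cluster the share was 92.6% in Hoxa, 84.2% in Hoxb, 73.3% in Hoxd and 42.1% in Hoxc. Neighbouring Hox regions lie close together and are not independent of each other.

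**Figure D5:**
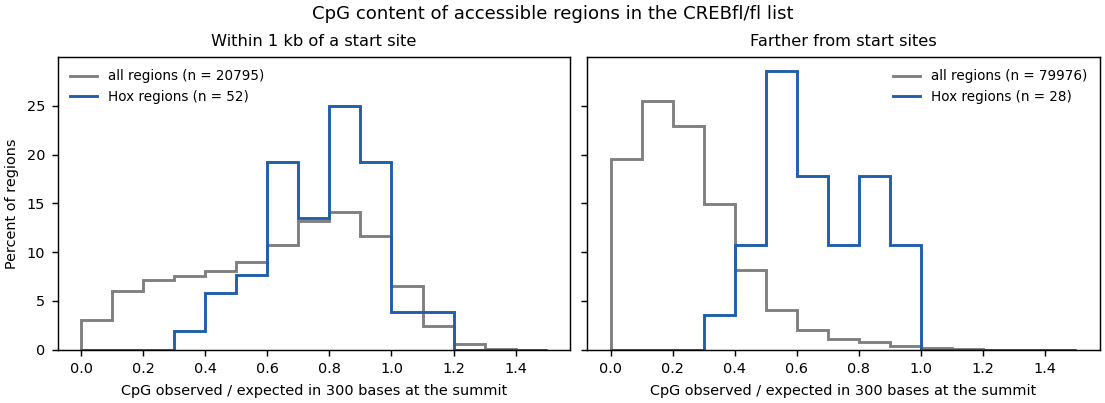
Observed over expected CpG in 300 bases at the summit (horizontal) and percent of regions (vertical) in the CREBfl/fl list, for Hox regions (blue) and all regions (grey). The left panel shows regions within 1 kb of a protein-coding start site and the right panel all others. In the right panel 57.1% of the Hox regions are at 0.6 or above, where 4.70% of all regions are.

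Words of transcription factor sites were counted on both strands of the same 300 bases. The CRE TGACGTCA, the element bound by CREB, was in 1 of 80 Hox regions (1.25%), against 0.942% of all CREBfl/fl regions and 2.36% of those near start sites. The half-site TGACG, which is also part of the full CRE, was in 25% of Hox regions (16.8 to 35.5), against 15.9% of all regions and 26.4% of those near start sites. The 13 shared Hox regions with the half-site had a median ratio of 0.10, and the 46 without it 0.10. Of the CREBfl/fl-only regions, 6 of 20 held it.

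Other words gave a mixed picture. The SP/KLF word GGGCGG was in 45% of Hox regions, between 17.8% of all regions and 50.8% of those near start sites. The NFY word CCAAT was in 36.2% (26.6 to 47.2), against 29.98% of all, and the ETS word CCGGAAG in 6.25% (2.70 to 13.8), against 5.05% of all and 12.8% near start sites. The PBX-HOX word TGATTNAT, which Hox proteins bind together with their PBX partners, was in 4 of 80 regions (5.00%, 1.96 to 12.2), at Hoxb9, Hoxb3, Hoxc6 and Hoxd11. This compares with 3.45% of all regions and 1.63% of those near start sites. The words at Hoxb9 and Hoxc6 lay outside the called region. In whole regions the word was in 2 of 80 (2.50%), against 3.40% of all. The CTCF core consensus was in 0 of 80 regions, with an upper Wilson limit of 4.58% (3.75% by a floor of 3 counts), against 5.26% of all regions and 1.59% of those near start sites.

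The background around a summit, which is raised where the neighbourhood also holds many fragments, separated the clusters. In Hoxa it was at least 2 times the genome background at 22 of 27 CREBfl/fl regions (81.5%), in Hoxb at 7 of 19 (36.8%), in Hoxc at 2 of 19 (10.5%) and in Hoxd at 0 of 15. Genome-wide this held for 39.7% of CREBfl/fl and 42.6% of Foxp3creCREBfl/fl regions, and for 73.9% of CREBfl/fl regions near start sites. In Foxp3creCREBfl/fl the counts were 17 of 20 in Hoxa, 11 of 22 in Hoxb, 4 of 17 in Hoxc and 0 of 13 in Hoxd. The highest value in a Hox region was 4.40 in CREBfl/fl and 4.89 in Foxp3creCREBfl/fl, which 17.0% and 16.2% of all regions reached.

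Other genes bear on how Hox clusters are read. All 11 listed Pbx, Meis, Pknox and Tgif genes, among them DNA-binding partners of Hox proteins, were open in both lists. Their medians were 48.1 and 47.6 times background. The highest were Pknox1 (185 and 216 times), Pbx4 (138 and 153), Tgif1 (92.0 and 95.5) and Pbx3 (89.4 and 111). Meis1, a partner of Hoxa9 in progenitors, was at 11.3 and 11.6. All 17 Polycomb genes were open (medians of 99.2 and 110 times), among them Cbx8 (183 and 206 times), Ezh2 (120 and 130) and Eed (116 and 126). Of 12 Trithorax genes 11 were open in both lists, with Kmt2a, the methyltransferase that keeps Hox genes active, highest at 129 and 141 times, and Kdm6b without a region at a start.

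Genes beside the clusters varied. Of 13 annotated flanking genes, 9 were open in CREBfl/fl and 11 in Foxp3creCREBfl/fl, at medians of 114 and 123 times background, and Cbx5 next to Hoxc (197 and 232), Hibadh beyond Hoxa (190 and 191) and Lnpk beyond Hoxd (120 and 140) were above every Hox start. The other neighbours open in both lists were also above every Hox start, except Skap1 beside Hoxb and Mtx2 beside Hoxd. Skap1, at 28.1 and 31.1 times, and Mtx2, at 26.1 and 33.4, were below the Hoxb4 and Hoxa3 starts. The remaining pair of genes beside Hoxb was open in Foxp3creCREBfl/fl alone. Their heights, both in that list, were 3.54 and 4.13 times background. The homeobox genes Evx1 and Evx2, which adjoin Hoxa13 and Hoxd13, had no region at a start in either list. Among 70 homeobox genes outside the clusters, 34 were open in CREBfl/fl (48.6%) and 31 in Foxp3creCREBfl/fl (44.3%), at medians of 13.2 and 16.1 times, with the broadly used Adnp (139 and 157) and Zhx1 (125 and 147) highest. Of 44 non-coding genes inside the cluster spans, 21 and 20 had a region within 1 kb of their 5′ end. Hotair and the microRNA genes Mir10a and Mir10b had none.

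Markers were read at start sites in the same way. All 9 Treg and T cell genes were open in both lists, with Cd4 lowest in each at 40.03 and 42.7 times background, Foxp3 at 116 and 121, Cd3g at 112 and 134, and medians of 80.9 and 80.6. Of the markers of other cells, 4 of 6 B cell genes were open in each list, 4 of 6 myeloid genes, 4 and 3 of 6 CD8 and NK genes, 3 of 5 erythroid genes, 3 of 5 progenitor genes and 4 of 8 stromal and endothelial genes. Among others, Cd79a, Lyz2, Csf1r, Cd8a, Ncr1, Cd34, Hbb-bt and Hba-a1 had no region at a start in either list. Other markers of the same cells were open in both lists. The highest were Pax5 for B cells (19.8 and 26.1 times background) and Spi1 for myeloid cells (41.1 and 54.1). For CD8 and NK cells it was Cd8b1 (19.8 and 17.5), for erythroid cells Klf1 (66.8 and 75.3), and for stromal and endothelial cells Pecam1 (85.1 and 81.0). The open genes of these lists reached the heights of Hox starts or passed them in part, at 3.08 to 19.8 times background in CREBfl/fl and 7.47 to 26.1 in Foxp3creCREBfl/fl for B cells, 4.86 to 41.1 and 4.72 to 54.1 for myeloid cells, 3.32 to 19.8 and 7.47 to 17.5 for CD8 and NK cells, 26.8 to 66.8 and 22.6 to 75.3 for erythroid cells, and 4.03 to 85.1 and 5.70 to 81.0 for stromal and endothelial cells. The open progenitor genes Kit, Mecom and Flt3 were at 2.96 to 5.21 times background in CREBfl/fl and 3.54 to 5.90 in Foxp3creCREBfl/fl. The part of other cells in the low Hox sites was not tested.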

How the data were processed

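ATAC-seq peaks of splenic Tregs were used. The labels give 3 libraries per group, and 1 deposited list per group was analysed. The methods of the paper state sequencing in duplicate, and how the libraries were pooled is not stated. The authors used Trim Galore, Bowtie2, duplicate removal and SAMtools on 75 bp paired reads before MACS2 peak calling, with tool versions not given in the sources used here. The deposited columns are a score, the fold of the summit over background (a ratio, by the authors' caller), and the authors' -log10 p and -log10 q. The methods name mm9, but the positions were read as GRCm38: 0 peaks passed a chromosome end, and of 54374 start sites 57.5% had a region of the CREBfl/fl list within 1 kb, a share that was 13.9% once positions were moved by 100 kb.

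The pileup and background of each summit were computed from fold and p, for 99.94% and 99.97% of peaks, within 0.002 on the -log10 scale. The methods state calling without a local background, yet 32.6% and 29.5% of peaks had the lowest background and the rest a higher one. Regions were shared at an overlap of 1 bp, and ratios have Clopper-Pearson 95% intervals. The code was tested on simulated data.

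The members, lists and tests were chosen with earlier results of these data known, and the local background and the depth comparison were added after the values had been seen. Named in full are the 3 highest shared regions of each cluster, every group-only region and every region whose interval leaves out 0, and from other lists up to 4 genes with the highest sites. Some genes, their regions and 1 sequence that these rules select are not reported here, and the plots by gene leave them out. Meis1, Kdm6b, Evx1, Evx2, Hotair and the microRNA genes were named after their values were seen. Python 3.11.15, pandas 2.3.3, SciPy 1.17.1 and samtools 1.23.1 were used.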

Additional observations from a re-analysis of the deposited data

How the results depend on the processing

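No paired analysis was possible because each group has a single deposited list, and no replicate could be left out for the same reason. Among the totals, 50 alternative values stayed close to the value reported (within 1.5 times for a count) and 8 did not. CREBfl/fl-only regions fell from 20 to 11, and Foxp3creCREBfl/fl-only regions from 4 to 1, at a -log10 q of at least 5. With an overlap of at least 50% of each of both regions required, Foxp3creCREBfl/fl-only regions rose from 4 to 21 (29.2% against 18.8% of all regions) and CREBfl/fl-only regions to 29 (36.2% against 23.8%). Intervals below 0 went from 1 to 0 without the shift to the median and to 2 with promoter regions as the reference, where 2.89% and 8.69% of all shared regions were below, and those above 0 from 4 to 9 and to 2, where 18.98% and 4.77% of all were above. No Hox region was called lower or higher under any of the 4 other ways of taking the ratio. By that rule a 2-fold change at a Hox region of median counting SD would not have been called. In whole regions in place of 300 bases the NFY word was in 26.2% rather than 36.2%, against 29.6% of all whole regions. Counting each summit on its own changed nothing, because every region has 1 summit. The cause was not tested. The 1.66-fold difference in depth and the lack of lists per mouse limit every comparison between the groups.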
